A study of Mus musculus with 6 samples.

Results

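The genes described here encode the machinery with which cells show peptides from their own proteins on MHC class I. The set holds 10 genes, taken by name from the 53801 genes of the deposited count table: the heavy chains H2-K1 and H2-D1, the light chain B2m, the peptide transporter Tap1 and Tap2, the loading factor Tapbp, the immunoproteasome subunits Psmb8, Psmb9 and Psmb10, and the transactivator Nlrc5. RNA was sequenced from stromal cells sorted for PDPN and PDGFRα, outside the CD45+ and CD31+ gates, from MO5 tumors, that is, B16-OVA melanomas implanted under the skin of adult mice of C57BL/6 background. The DTR group had 3 libraries from ADAM12-DTR mice (genotype DTR+), which carry a BAC transgene with tTA and the diphtheria toxin receptor under Adam12 regulatory sequences, and the Ctrl group had 3 libraries from littermates without it (DTR-). Both groups received diphtheria toxin (DT), so that toxin exposure is common to them and loss of ADAM12+ cells is what the contrast was built to show. The labels do not say whether replicates are separate animals or pools, so the p-values measure the spread between these libraries.

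Proteasomes cut cytosolic proteins into peptides, the TAP transporter moves the peptides into the endoplasmic reticulum, and chaperones there load them onto a heavy chain paired with β2-microglobulin, which then travels to the cell surface for CD8+ T cells to inspect. Interferon-γ is the classic inducer of the whole route: it replaces the catalytic subunits of the standard proteasome with those of the immunoproteasome and acts through IRF1 and NLRC5 on the promoters of the other genes. In stromal cells of tumors, class I levels bear on whether T cells can recognise these cells at all.

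In these libraries the class I genes were abundant and varied together between libraries, and no difference between the genotypes was detected. All 10 passed the expression filter, and 0 of 10 differed between DTR and Ctrl at an adjusted p under 0.05 (edgeR, quasi-likelihood F-test, p-values adjusted after Benjamini and Hochberg, BH, over all genes), on a background of 0% of the 15133 genes tested. At an unadjusted p under 0.05, 0 of 10 members passed, against 7.92% of all genes. The libraries of the groups overlapped for every member, whereas for 14.5% of all genes tested they did not (8.18% lower and 6.32% higher in DTR). Every member was lowest in Ctrl replicate 1 and highest in DTR replicate 3, which held for 4.88% of the genes tested. Taken singly, 17.8% of these genes were lowest in Ctrl replicate 1 and 20.9% were highest in DTR replicate 3.

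**Figure D1:**
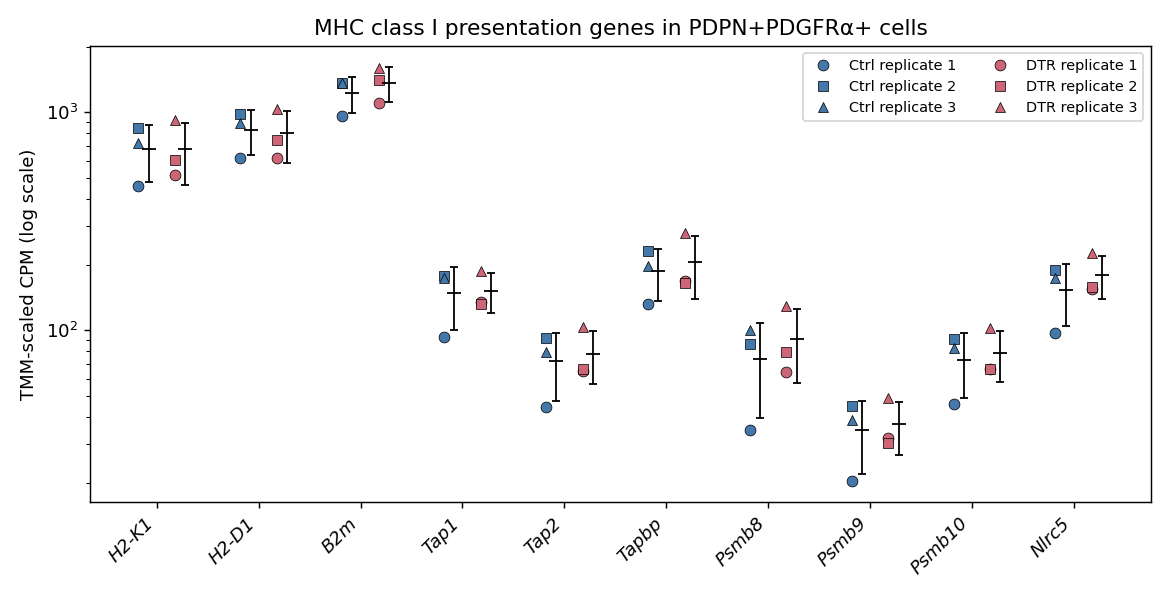
Expression of the 10 class I genes in TMM-scaled CPM (log axis), with a point for each library (blue, Ctrl; red, DTR; circle, square and triangle for replicates 1, 2 and 3) and the mean with its SD (n = 3) beside each group. For every gene the lowest point is Ctrl replicate 1 and the highest is DTR replicate 3, and the groups overlap.

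Library totals ran from 22339635 to 34271929 counts, and a detection floor of 3 counts equals 0.0875 to 0.134 CPM, which covers counting error only. CPM are a gene's counts over its library's total, times 1000000, with the total scaled by edgeR's TMM factor. The members took between 0.245% and 0.471% of the counts of a library, with single counts from 498 (Psmb9, Ctrl replicate 1) to 43929 (B2m, DTR replicate 2). Adam12, whose promoter drives the toxin receptor, was at 216, 181 and 175 CPM in Ctrl and at 165, 151 and 112 CPM in DTR. Its log2 fold change was -0.42 (SE 0.154, BH-adjusted p = 0.602, edgeR), and no gene tested had a lower adjusted p. Every DTR library lay below every Ctrl library for Adam12, which held for 8.18% of the genes tested. The Adam12 transcript was present in all DTR libraries. The 10 mesenchymal markers were all expressed, with a summed level from 5211 to 14155 CPM. The 8 melanoma markers, which include Dct, Tyrp1 and Pmel, summed to between 15235 and 18964 CPM, more than the mesenchymal markers in each of the 6 libraries, although the label names stromal cells. Where this RNA came from was not tested. B16 cells come from the same mouse strain, and reads of their class I genes and of those of the stroma cannot be told apart. Nor can fewer cells of a type be told apart from less RNA per cell in such bulk samples.

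Promoters were searched because members varied together between libraries and are textbook targets of interferon and NF-κB, and those with a match are shown. Windows of 250 bases before to 50 bases after the start were given by RefSeq (GRCm38.p6) for 8 of the 10 genes, and not for Tap2 and Nlrc5. The windows of Tap1 (chr17:34187306-34187605) and Psmb9 (chr17:34187281-34187580) are nearly the same stretch on opposite strands. Shares of the 8 genes therefore count this stretch under both genes. They were searched on both strands for an interferon-stimulated response element (GAAA, then NN, then GAAA), for a gamma-activated site (TTC, then NNN, then GAA) and for the NF-κB consensus. In the stretches below, 5′ to 3′ on the strand of the gene, capitals mark the matches, and positions are counted from the RefSeq transcription start. The gene spans given further on are from GENCODE and begin earlier for H2-D1 and Psmb8, so that their stretches lie inside those spans.
H2-K1, -200 to -81, chr17:34000428-34000547, minus strand: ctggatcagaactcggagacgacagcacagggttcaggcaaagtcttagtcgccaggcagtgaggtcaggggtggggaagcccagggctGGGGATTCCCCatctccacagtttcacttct
H2-D1, -181 to -152, chr17:35262913-35262942, plus strand: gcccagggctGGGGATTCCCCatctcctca
B2m, -200 to -81, chr2:122147487-122147606, plus strand: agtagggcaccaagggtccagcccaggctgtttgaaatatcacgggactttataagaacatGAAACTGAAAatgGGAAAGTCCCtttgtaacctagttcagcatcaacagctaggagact
Psmb8, -107 to -78, chr17:34198088-34198117, plus strand: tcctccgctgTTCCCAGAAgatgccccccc

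Both heavy-chain promoters held the same NF-κB match, read as a pair of overlapping hits, and 29 of the 30 bases around it were identical in H2-K1 and H2-D1. B2m held an NF-κB match on the opposite strand at -126, right after an interferon-stimulated response element at -139. These NF-κB matches, in 3 of 8 members, compare with 5.14% of the 27025 genes that have a window. The response element in the exact form searched was in 1 of 8 members and in 3.99% of these genes. Forms that differ from it by a base were not searched, so a window without a match may still hold such an element. Psmb8 had a gamma-activated site at -97, which was in 1 of 8 members and in 9.55% of these genes. A match is a run of letters, and binding was not measured.

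The heavy chains form the peptide-binding groove. H2-K1 (ENSMUSG00000061232, GRCm38 chromosome 17, 33996017 to 34000347, minus strand) was counted at 461, 849 and 720.5 CPM in Ctrl and at 513, 603 and 924 CPM in DTR. Ctrl replicate 1 and DTR replicate 1 were the lowest, DTR replicate 3 was the highest, and the groups spanned nearly the same range. Ctrl averaged 677 ± 198 CPM (SD, n = 3), and DTR averaged 680.0 ± 216 CPM (SD, n = 3). The log2 fold change, DTR over Ctrl, was 0.0068 (SE 0.269, BH-adjusted p = 0.995, edgeR), and its 95% interval allowed from 0.654-fold to 1.54-fold. H2-D1 (ENSMUSG00000073411, chromosome 17, 35262730 to 35267499, plus strand), which encodes the other classical heavy chain of this strain, was at 616, 986 and 897 CPM in Ctrl and at 618, 744 and 1041 CPM in DTR. The first replicates of both groups lay at the bottom, and DTR replicate 3 lay above all Ctrl libraries. Its log2 fold change was -0.057 (SE 0.227, BH-adjusted p = 0.953, edgeR; 95% interval 0.669-fold to 1.38-fold). It was the only member below 0, where 50.4% of all genes tested lay.

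Reads of the heavy chains are partly ambiguous, because class I genes are close paralogs. Of the 50-base words in annotated transcripts of H2-K1, 9.63% also occur in another gene, most in H2-Q10 (5.18%) and H2-D1 (4.08%). For H2-D1 the share was 12.8%, most of it with H2-Q1 (5.87%) and H2-K1 (5.44%). H2-Q10 and H2-Q1 themselves stayed at or under 0.492 CPM in every library. The share was 2.87% for Tapbp, of which 149 exon bases overlap Zbtb22 on the same strand, at most 0.655% for Tap1, Tap2 and Psmb8, and 0 for B2m, Psmb9, Psmb10 and Nlrc5.

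B2m (ENSMUSG00000060802, chromosome 2, 122147686 to 122153083, plus strand) encodes β2-microglobulin, the light chain without which heavy chains do not reach the surface. It was the most abundant member, at rank 42 of the 15133 genes tested by mean CPM, with H2-D1 at rank 79 and H2-K1 at rank 104. Its values were 959, 1360.4 and 1360.7 CPM in Ctrl and 1100.1, 1413 and 1596 CPM in DTR. It varied least of the 10, by 1.67-fold from the lowest to the highest library. The log2 fold change was 0.16 (SE 0.179, BH-adjusted p = 0.828, edgeR), with a 95% interval from 0.838-fold to 1.49-fold. B2m was also the only member for which DTR replicate 2 exceeded both Ctrl replicates 2 and 3.

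Tap1 and Tap2 together form the peptide transporter and lie close together within the MHC, as do Psmb8 and Psmb9. Tap1 (ENSMUSG00000037321, chromosome 17, 34187553 to 34197225, plus strand) was at 93.5, 177 and 173 CPM in Ctrl and at 134, 131 and 188 CPM in DTR. Tap2 (ENSMUSG00000024339, chromosome 17, 34203527 to 34216321, plus strand) was at 44.3, 92.2 and 79.8 CPM in Ctrl and at 65.0, 66.4 and 103 CPM in DTR. In both genes the Ctrl replicates 2 and 3 lay between DTR replicates 1 and 2 below and DTR replicate 3 above, and Ctrl replicate 1 lay under all of them. The log2 fold changes were 0.033 for Tap1 (SE 0.248, BH-adjusted p = 0.976, edgeR) and 0.11 for Tap2 (SE 0.282, BH-adjusted p = 0.930). Tapbp (ENSMUSG00000024308, chromosome 17, 33915899 to 33929292, plus strand) encodes tapasin, which bridges the transporter and the empty class I molecule. It was at 133, 230.5 and 197 CPM in Ctrl and at 169, 165 and 281 CPM in DTR, again with Ctrl replicates 2 and 3 above DTR replicates 1 and 2. Its log2 fold change was 0.13 (SE 0.256, BH-adjusted p = 0.904, edgeR).

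The immunoproteasome subunits varied more between libraries than the chains did. Psmb8 (LMP7; ENSMUSG00000024338, chromosome 17, 34197721 to 34201454, plus strand) was at 35.0, 86.2 and 100.4 CPM in Ctrl and at 64.2, 79.8 and 129.8 CPM in DTR. This was the widest spread of any member, 3.71-fold from Ctrl replicate 1 to DTR replicate 3, and the groups overlapped through the other libraries. Its log2 fold change was the highest of the set, at 0.30 (SE 0.390, BH-adjusted p = 0.848, edgeR), and its 95% interval was the widest, from 0.661-fold to 2.30-fold. Psmb9 (LMP2; ENSMUSG00000096727, chromosome 17, 34181987 to 34187764, minus strand), the least abundant member at rank 4933, was at 20.3, 44.97 and 38.8 CPM in Ctrl and at 31.9, 30.4 and 48.6 CPM in DTR. Psmb10 (MECL-1; ENSMUSG00000031897, chromosome 8, 105935735 to 105938444, minus strand) lies outside the MHC and was at 45.7, 90.8 and 83.1 CPM in Ctrl and at 66.5, 66.7 and 102 CPM in DTR. In Psmb9 and Psmb10, as in the transporter genes, Ctrl replicates 2 and 3 lay above DTR replicates 1 and 2 and below DTR replicate 3. Their log2 fold changes were 0.089 (SE 0.298, BH-adjusted p = 0.947, edgeR) and 0.10 (SE 0.270, BH-adjusted p = 0.936).

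Nlrc5 (ENSMUSG00000074151, chromosome 8, 94434356 to 94527272, plus strand), which encodes the transactivator that assembles on class I promoters, was at 97.4, 189 and 174 CPM in Ctrl and at 154, 158 and 226 CPM in DTR. Ctrl replicate 1 lay apart below the other libraries, and DTR replicates 1 and 2 lay under Ctrl replicates 2 and 3. Its log2 fold change was 0.23 (SE 0.252, BH-adjusted p = 0.823, edgeR). This adjusted p was the lowest of the set. Over the 10 members, two-sided exact permutation tests of the log2 values gave p from 0.5 to 1, where the smallest p that 3 libraries against 3 allow is 0.1.

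**Figure D2:**
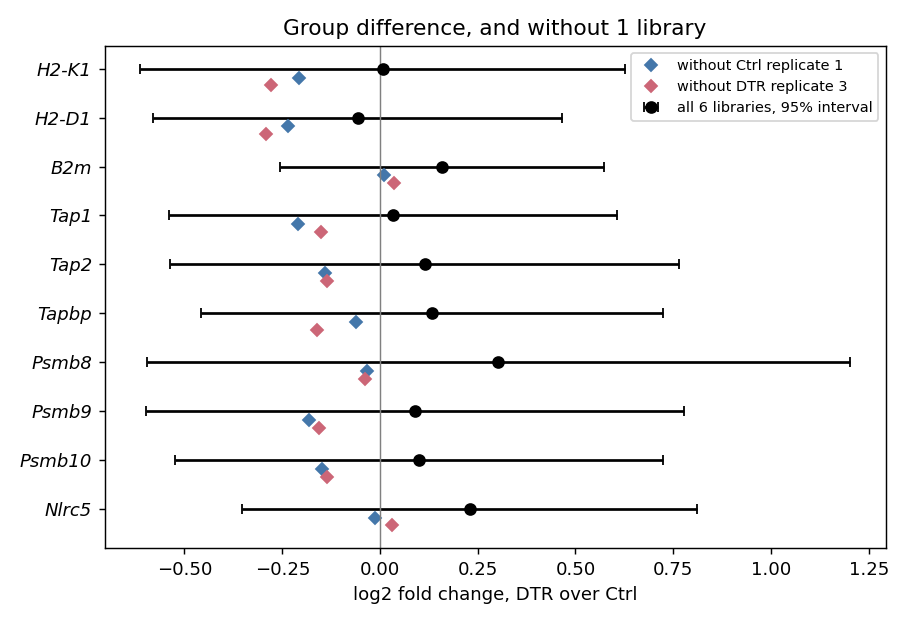
Log2 fold change (DTR over Ctrl) of each class I gene with all 6 libraries (black, bar: 95% interval from edgeR's quasi-likelihood fit) and without Ctrl replicate 1 (blue) or without DTR replicate 3 (red). All intervals span 0, and without either library most estimates move below 0.

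Of the 10 log2 fold changes, 9 were above 0, against 49.6% of all genes tested, and their median was 0.11, against -0.0029 over all genes tested. This count rested on single libraries. Without Ctrl replicate 1 the median was -0.14 and 1 of 10 was above 0, and without DTR replicate 3 the median was again -0.14 with 2 of 10 above 0. Without any other library the median lay between 0.19 and 0.30. None of the 16 fits called a member. For 9 of the 10 genes, all but B2m, the Ctrl replicates 2 and 3 both lay above DTR replicates 1 and 2, which held for 19.5% of all genes tested.

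The shared order was close in size as well as in rank. On a log2 scale centred on each gene's own mean, the members averaged -0.64, 0.27 and 0.17 in Ctrl replicates 1, 2 and 3 and -0.20, -0.084 and 0.48 in DTR replicates 1, 2 and 3. The distance between the extreme libraries had a median of 1.12 on the log2 scale over the members and of 0.61 over all genes tested. Psmb10 stayed nearest to the mean profile of the members, with a root mean square difference of 0.037 (log2) over the 6 libraries, and Psmb8 was farthest, at 0.253. Over 14973 genes outside the lists used here, the median difference from this profile was 0.423, and 503 of them (3.36%) lay as near as Psmb8 or nearer. The members are near this profile in part because it is their own mean. The nearest were Pik3ip1 (0.074), which encodes an inhibitor of PI3-kinase, Cnp (0.089), an enzyme best known from myelin, Carmil2 (0.093), a regulator of actin capping, and Gm15753 (0.095) and Gm15419 (0.096). Carmil2, Gm15753 and Gm15419 were low, at or under 5.24 CPM in every library. Pik3ip1 was at 10.4, 18.99 and 16.6 CPM in Ctrl and at 13.7, 15.1 and 19.8 CPM in DTR, the order of libraries seen in the members.

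**Figure D3:**
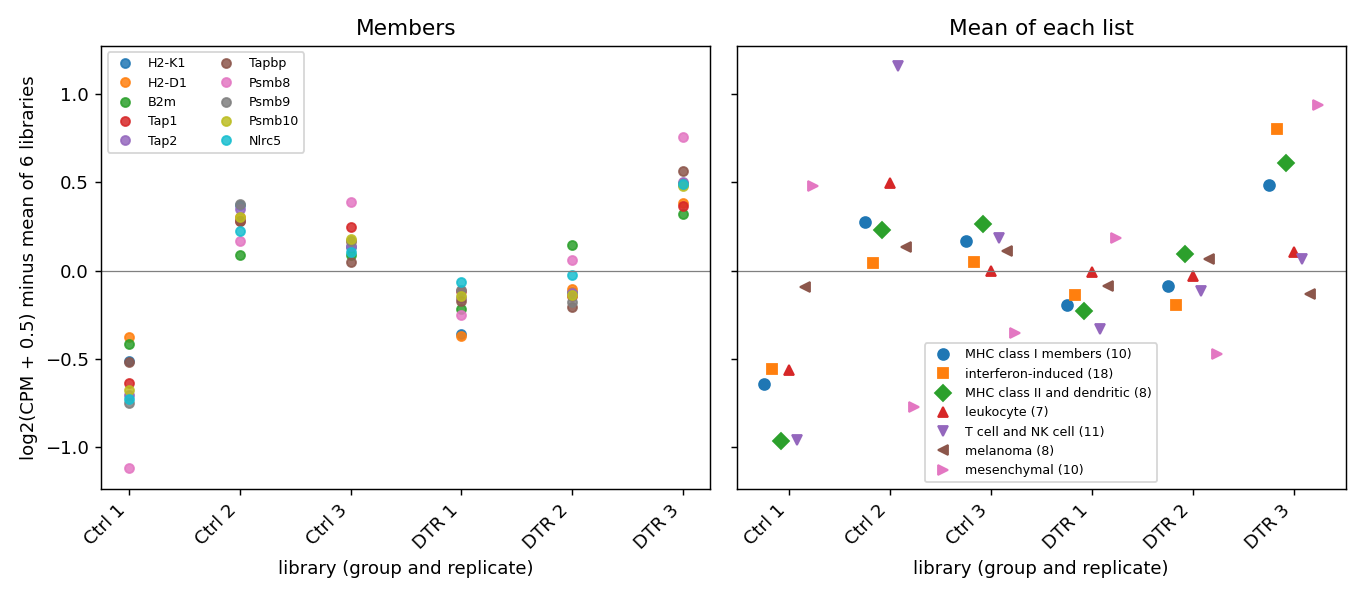
Log2(CPM + 0.5) in each library minus the mean over the 6 libraries, for the 10 class I genes (left) and as the mean of each gene list with its number of genes (right). The members run from -0.64 on average in Ctrl replicate 1 to 0.48 in DTR replicate 3, and the interferon-induced list has the same lowest and highest library.

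Genes that respond to interferon ran in a similar order. Of 20 listed interferon-induced genes, 18 could be tested, 0 were called, and 16 had a log2 fold change above 0 with a median of 0.38. Without DTR replicate 3, 8 of 18 were above 0 with a median of -0.017, and without Ctrl replicate 1 the median was 0.19. Of these 18, 12 were lowest in Ctrl replicate 1 and 17 were highest in DTR replicate 3. Tgtp1, a GTPase of cell-autonomous immunity, had the highest log2 fold change of the list at 1.04 (0.408, 0.711 and 1.30 CPM in Ctrl; 1.51, 0.901 and 2.64 CPM in DTR), and Usp18, which removes ISG15 from proteins, the lowest at -0.23. Cxcl10, a chemokine that draws T cells, was at 54.6, 69.5 and 84.0 CPM in Ctrl and at 95.04, 85.5 and 176 CPM in DTR. It was the only gene of this list without overlap between the groups, at a log2 fold change of 0.78 (SE 0.281, BH-adjusted p = 0.602, edgeR). Gbp4 and Igtp were listed at 0 in all libraries, as was Irf8 among the interferon signalling genes. Whether such zeros mean absent transcripts or reads not counted for these genes was not tested. Of 6 listed interferon genes only Ifng could be tested, at 0.571, 0.837 and 1.02 CPM in Ctrl and 0.494, 1.19 and 1.10 CPM in DTR.

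Of 19 interferon receptors and signalling genes upstream, 18 were tested and 0 called, with 13 above 0 and a median log2 fold change of 0.13, which was 0.025 without DTR replicate 3 and 0.068 without Ctrl replicate 1. Irf1, an interferon-induced activator of class I promoters chosen after its values were seen, was at 68.3, 123 and 123 CPM in Ctrl and at 113, 101 and 212 CPM in DTR, again lowest in Ctrl replicate 1 and highest in DTR replicate 3. Socs1, a feedback inhibitor of interferon signalling, had the highest log2 fold change at 0.94 (SE 0.457), with 12.1 CPM in DTR replicate 3 and from 2.73 to 4.67 CPM in the other 5 libraries. The interferon-γ receptor chain Ifngr2 was the lowest of the list at -0.16, with 66.3, 66.2 and 69.0 CPM in Ctrl and 57.4, 60.4 and 62.6 CPM in DTR. Its groups did not overlap, and neither did those of Ifnar1, a chain of the type I interferon receptor, at a log2 fold change of 0.067. Of 16 factors that act on class I promoters (RFX, NF-Y, NF-κB, CREB and chromatin regulators), 0 were called and the median was 0.020. They ranged from -0.25 for Rfxap, part of the RFX complex, to 0.31 for the NF-κB subunit Nfkb1, and Nfya, at -0.14, was the only one whose DTR libraries all lay below Ctrl.

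Of 12 genes of peptide loading and trimming tested, 2 were lowest in Ctrl replicate 1 and 3 were highest in DTR replicate 3. In this list 6 log2 fold changes were above 0 and 6 below, 0 genes were called, and the median was -0.028. The chaperone Calr was at 1263, 1308 and 1304 CPM in Ctrl and at 1244, 1102 and 1076 CPM in DTR (log2 fold change -0.18, SE 0.091, BH-adjusted p = 0.649, edgeR). The groups did not overlap for Calr and for Uggt1, the glycoprotein folding sensor (-0.17), both lower in DTR, and for the peptidase Tpp2 (0.12), higher in DTR. Such separation in either direction was found for 14.5% of all genes. The list ran from Thop1, a cytosolic peptidase, at -0.24 to Sec61g, part of the translocon, at 0.68. Erap1, the aminopeptidase that trims class I peptides, was also looked at after its values were seen, and was at 46.9, 76.7 and 72.2 CPM in Ctrl and at 73.6, 84.9 and 111 CPM in DTR.

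The immunoproteasome can be set against the standard subunits it replaces only per length of transcript. With CPM per kilobase of annotated exon, the level of Psmb8 relative to its partner Psmb5 was 0.547, 1.27 and 1.75 in Ctrl and 0.952, 1.44 and 2.91 in DTR. For Psmb10 relative to Psmb7 the ratios were 1.30, 2.53 and 2.06 in Ctrl and 1.45, 1.83 and 2.67 in DTR. Psmb9 stayed below its partner Psmb6 in every library, with ratios of 0.116, 0.254 and 0.190 in Ctrl and 0.174, 0.204 and 0.300 in DTR. With the length of the principal transcript in place of all annotated exon, Psmb8 over Psmb5 ran from 1.14 to 6.05, above 1 in every library, Psmb9 over Psmb6 from 0.134 to 0.346 and Psmb10 over Psmb7 from 0.574 to 1.18. All 3 ratios were lowest in Ctrl replicate 1 and highest in DTR replicate 3, and the groups overlapped in each. The standard subunits themselves had log2 fold changes of -0.17 (Psmb5), -0.17 (Psmb6) and 0.12 (Psmb7), and 0 of 3 were called. The proteasome activator and assembly genes gave 0 called of 5 tested, from -0.069 for Psme1 to 0.074 for Psme4. Psme1, a subunit of the interferon-inducible PA28 cap, was at 161, 287 and 239 CPM in Ctrl and at 204, 189 and 262 CPM in DTR, lowest in Ctrl replicate 1 like the members, but highest in Ctrl replicate 2.

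**Figure D4:**
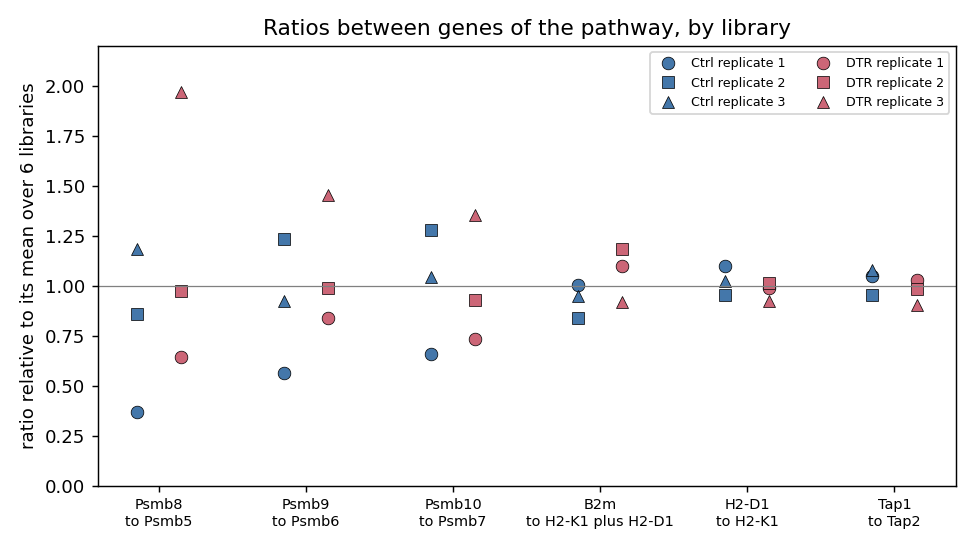
Ratios of levels per kilobase of exon between genes of the class I pathway, each divided by its mean over the 6 libraries (blue, Ctrl; red, DTR; symbols mark replicates). The ratio of Psmb8 to Psmb5 spreads 5.32-fold between libraries, whereas those of H2-D1 to H2-K1 and of Tap1 to Tap2 spread 1.19-fold.

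Ratios between the heavy chains and between the transporter subunits spread less. H2-D1 over H2-K1 was 1.52, 1.32 and 1.42 in Ctrl and 1.37, 1.41 and 1.28 in DTR, and Tap1 over Tap2 was 1.46, 1.32 and 1.495 in Ctrl and 1.43, 1.37 and 1.26 in DTR. B2m over the sum of both heavy chains was 2.82, 2.36 and 2.67 in Ctrl and 3.09, 3.33 and 2.59 in DTR. The groups overlapped in all of these. Per kilobase in Ctrl, B2m was highest at 1426 ± 270 (SD, n = 3), followed by H2-D1 at 323 ± 74.9 and H2-K1 at 230.4 ± 67.4, a difference larger than either SD, and H2-D1 lay above H2-K1 in all 6 libraries. Tapbp (51.4 ± 13.7), Psmb10 (42.9), Tap1 (27.0), Psmb8 (21.9), Tap2 (19.1), Nlrc5 (18.04) and Psmb9 (9.48 ± 3.51) came after a wide gap. Neighbours from Tapbp on differed by less than the larger of their SDs, except Psmb10 from Tap1 and Nlrc5 from Psmb9. These SDs are between libraries, over which the members varied together. Within libraries Tapbp lay above Psmb10 in all 6. The order of Tap1 and Psmb8, of Psmb8 and Tap2, and of Tap2 and Nlrc5 changed between libraries. By principal transcript length, H2-K1 came out above H2-D1, at 418 against 396, and Psmb9, at 25.7, above Tap2 and Nlrc5, so that these orders depend on the length used.

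Other class I genes were mostly lower than the members. Of 28 nonclassical genes (H2-Q, H2-T, H2-M and H2-Bl) in the table, 9 passed the filter, 12 had no count in any library, and 0 were called. The 9 had a median log2 fold change of 0.072, from -0.59 for H2-M2 to 0.81 for H2-Q5, both low genes at or under 4.45 CPM. The most abundant was H2-T22, at 75.6, 143 and 126 CPM in Ctrl and at 99.6, 98.6 and 146 CPM in DTR, and H2-T23, which encodes the NKG2A ligand Qa-1, was at 21.1, 43.8 and 32.7 CPM in Ctrl and at 23.0, 25.1 and 54.7 CPM in DTR. These were named after their values were seen, and both were lowest in Ctrl replicate 1 and highest in DTR replicate 3. Of 7 class I-like genes outside the MHC, 6 were tested and 0 called. They ran from the lipid-presenting Cd1d1 at -0.60, at or under 0.897 CPM, to the protein C receptor Procr at 0.38. Hfe, which regulates iron uptake, was lower in every DTR library (21.8, 22.5 and 24.0 CPM in Ctrl; 15.1, 20.5 and 15.8 CPM in DTR) at a log2 fold change of -0.41 (SE 0.147, BH-adjusted p = 0.602, edgeR).

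Markers of other cells were measured beside the members. The 8 genes of MHC class II antigen-presenting cells summed to 169, 652 and 548 CPM in Ctrl and 315, 458 and 706 CPM in DTR. Like the members, this sum was lowest in Ctrl replicate 1 and highest in DTR replicate 3. Singly this held for 6 of the 8 genes, namely H2-Aa, H2-Ab1, H2-Eb1, Cd74, Ciita and the dendritic cell gene Xcr1 (0.163 to 1.10 CPM). The dendritic cell gene Zbtb46 (8.43 to 12.5 CPM) was lowest in DTR replicate 1 and highest in DTR replicate 2. Flt3 (1.17 to 6.27 CPM) was lowest in Ctrl replicate 2 and highest in DTR replicate 2. The 7 leukocyte markers summed to 51.5, 129 and 82.8 CPM in Ctrl and 86.5, 79.9 and 94.7 CPM in DTR, and 7 of 7 were lowest in Ctrl replicate 1. The T cell and NK cell markers summed to 10.1, 67.6 and 30.7 CPM in Ctrl and 19.1, 24.4 and 30.4 CPM in DTR, with all 11 tested genes below 0 (median log2 fold change -0.57) and 0 called. Without Ctrl replicate 2, 8 of 11 were above 0 with a median of 0.18, and without Ctrl replicate 1 the median was -1.04. Macrophage markers summed to between 208 and 269 CPM, of which Mertk, a gene that other cells also express, gave 100.4 to 117 CPM, and 4 of 10 were lowest in Ctrl replicate 1 and 0 were highest in DTR replicate 3. Mesenchymal markers were highest in the libraries at both ends of the members' order, with sums of 13676 CPM in Ctrl replicate 1 and 14155 CPM in DTR replicate 3. The melanoma sum was lowest in DTR replicate 3, at 15235 CPM, and was 16324 CPM in Ctrl replicate 1. Endothelial markers summed to 100.2 CPM in DTR replicate 3 and at most 47.2 CPM elsewhere, most of it from Tek (62.8 CPM) with Kdr at 12.0 CPM, while Emcn, Cldn5 and Tie1 were at or near 0 in all libraries. Among marker genes that passed the expression filter, those without overlap between the groups, named after their values were seen, were Vwf, higher in DTR at a log2 fold change of 0.51, and Cd3d (-1.23), Mrc1 (-0.57) and Sox10 (-0.28), lower in DTR, and 0 of these were called. Neutrophil, B cell and keratinocyte markers stayed at or under 7.67 CPM in sum. That highest value was the neutrophil sum in Ctrl replicate 1, which was from 1.33 to 1.88 CPM in the other libraries. The part of any of these cells in the order of the class I genes was not tested.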

How the data were processed

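The authors trimmed reads with cutadapt 3.4, aligned them to GRCm38 with STAR 2.7.3a and counted them per gene with featureCounts 2.0.1 (versions per the labels), using the strand-marking libraries. Their deposited raw counts for 6 libraries were analysed. The deposited score columns, counts divided by a DESeq2 size factor and rounded, and the columns of the authors' own comparison (fold changes, p-values, dispersions and Cook's distances) were not used. Of 53801 genes, 27987 had no name in the table and 27841 of these were named from GENCODE M21. That annotation also gave coordinates and lengths.

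Genes were kept by filterByExpr (minimum count 10, minimum total 15), which left 15133. DTR and Ctrl were compared in edgeR (glmQLFit and glmQLFTest, two-sided) after TMM scaling, without covariates, and p-values were adjusted by the Benjamini-Hochberg method over all tested genes. A gene was called at an adjusted p under 0.05. The tools were edgeR 4.0.16, DESeq2 1.42.0 and limma 3.58.1 in R 4.3.3, with matplotlib 3.10.9 in Python 3.11.15 for plots, and the fit was tested on simulated data. Totals per library limit detection to 3 counts.

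The members and gene lists were chosen with earlier results of these data known. Named genes are the members, the lowest, highest and non-overlapping genes of each list other than marker lists, the standard subunits Psmb5, Psmb6 and Psmb7, Adam12, and the 5 genes nearest to the members' profile. Any further gene is marked as picked with its values in view, belongs to a marker list, shares sequence with a member, or is named because it was listed at 0. Alternatives were other size factors, filters, moderation and tests, a replicate block, an offset for genomic span and each library left out in turn. The length of the principal transcript and the lists without each library were added after seeing the data.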

Additional observations from a re-analysis of the deposited data

How the results depend on the processing

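No alternative called a member, and the 9 other settings with all libraries left the median log2 fold change of the members above 0. DESeq2's Wald test called 31 of 26774 genes (0.116%) where edgeR's called 0, with 0 members among them, and with each library left out in turn edgeR called 0 to 2 genes, 2 of them without Ctrl replicate 1. H2-K1, nearest to 0, had a log2 fold change of -0.0018 with limma voom and of -0.0082 with the offset for genomic span. Deviations of same-numbered libraries from their group means correlated at r = 0.114, 0.132 and -0.042, and those of unlike-numbered pairs at -0.215 to 0.102. With the replicate block 0 genes were called and the median of the members was 0.13. The lowest BH-adjusted p of a member was then 0.624 (Psmb8, edgeR). Leaving out each library in turn gave log2 fold changes from -0.28 to 0.20 for H2-K1, -0.29 to 0.11 for H2-D1, 0.0096 to 0.31 for B2m, -0.21 to 0.18 for Tap1, -0.14 to 0.33 for Tap2, -0.16 to 0.31 for Tapbp, -0.038 to 0.59 for Psmb8, -0.18 to 0.32 for Psmb9, -0.15 to 0.28 for Psmb10 and -0.012 to 0.41 for Nlrc5. With the length of the principal transcript, chosen after seeing the data, the Ctrl means per kilobase were 418 for H2-K1, 50.01 for Tap1, 45.4 for Psmb8 and 25.7 for Psmb9, because this transcript is shorter than all annotated exon together. With 3 libraries a group, the 95% intervals of the members reach down to between 0.654-fold (H2-K1) and 0.838-fold (B2m) and up to between 1.38-fold (H2-D1) and 2.30-fold (Psmb8).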
